A study of Mus musculus with 3 samples.

Results

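The tripartite motif (TRIM) genes encode a large family of ubiquitin ligases, and their transcripts were followed here in macrophages given lactobacilli before lipopolysaccharide (LPS). Members were all genes whose array name was Trim with a number and at most 1 letter, and whose signal was well above background on at least 1 array, which is the call of the scanner software that a spot stands clear of its local background. Of 66 such names on the arrays, 43 qualified and 23 did not, out of 20420 detected gene names of 36870 in all. RAW264.7 cells, an established mouse macrophage line, were stimulated with LPS alone, with LPS after Lactiplantibacillus plantarum LOC1, or with LPS after L. plantarum LOC3, and RNA was taken 3 h after the LPS that all 3 groups received. The strains were present for 12 h by the labels and 24 h by the methods, and LPS was added at 50 ng/mL according to the methods, or 100 ng/mL where the results describe it. Each condition had 1 array, so no SD, test or p-value between conditions can be given. Unchallenged macrophages enter through the authors' ratios alone, since their own array is not analysed here.

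TRIM proteins carry a RING finger that recruits a ubiquitin-loaded E2 enzyme, then B-box domains and a coiled coil through which they pair, and most end in a domain such as PRY-SPRY that picks the target. Many of them act in antiviral defence of macrophages: Trim25 builds ubiquitin chains for signalling by the RNA sensor RIG-I, Trim21 is a cytosolic antibody receptor, and members of the Trim30 group restrain NF-kB signalling. Transcription of a number of TRIM genes is switched on by interferons through the interferon-stimulated response element (ISRE), while others, such as Trim28, regulate chromatin or, such as the muscle-specific Trim63, belong to other tissues.

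The level of a gene was the log2 intensity of its brightest probe minus the 75th percentile of the array. Signals that failed that call and lay under the dimmest passing signal of their array were raised to it. This was 16.3 for LPS, 14.5 for LOC1 and 19.8 for LOC3. The share of probes well above background was 51.9%, 50.4% and 47.8% in that order. All 8 macrophage markers named on the arrays, among them Cd68, Csf1r and Lyz2, were well above background on all 3 arrays. Of 16 markers of other cell types, 1 array or more detected 9. The authors' ratios to unchallenged macrophages listed 4 of these 9 as higher with LPS, beside 14.3% of all detected genes. They were Epcam, Col1a1, Col1a2 and Pdgfra, from probes that read 20.7, 53.9, 30.4 and 23.1. Past 2-fold with LOC1 were the muscle gene Ckm, at 124 and not well above background on the other arrays, and the B cell gene Ms4a1, at 29.0, 55.9 and 18.8, and their part in the results was not tested. Probes printed 10 times on each array gave a technical SD of a log2 difference of 0.06 for bright probes with either strain, and of 0.29 with LOC1 and 0.34 with LOC3 for dim ones, that is, probes with a mean level below -1. These SDs hold no variation between cultures. Of the 43 members, 33 were bright and 10 dim.

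Detection set the membership. Trim55, a sarcomere-associated ligase of striated muscle, was the member with the lowest signal, at 27.4 with LPS, 18.1 with LOC1 and 17.8 with LOC3, and it was not well above background with LOC3. Just outside was Trim12a, at 17.6, 9.38 and 18.01. The other names that did not qualify included Trim5 and Trim6 of the chromosome 7 cluster, the interferon regulators Trim31, Trim38 and Trim40, the chromatin regulator Trim66 and the muscle genes Trim63 and Trim72. The brightest probes of the members ranged from 27.4 to 103216 with LPS (median 1289), from 18.1 to 123384 with LOC1 (median 1072) and from 17.8 to 120630 with LOC3 (median 1169). Intensities of different probes also depend on how well each probe binds, so they give no order of transcript levels between genes. The 5 members with the highest probe signal with LPS were Trim25, Trim28, Trim35, Trim26 and Trim30a, and 42 of 43 members were well above background on all 3 arrays.

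**Figure D1:**
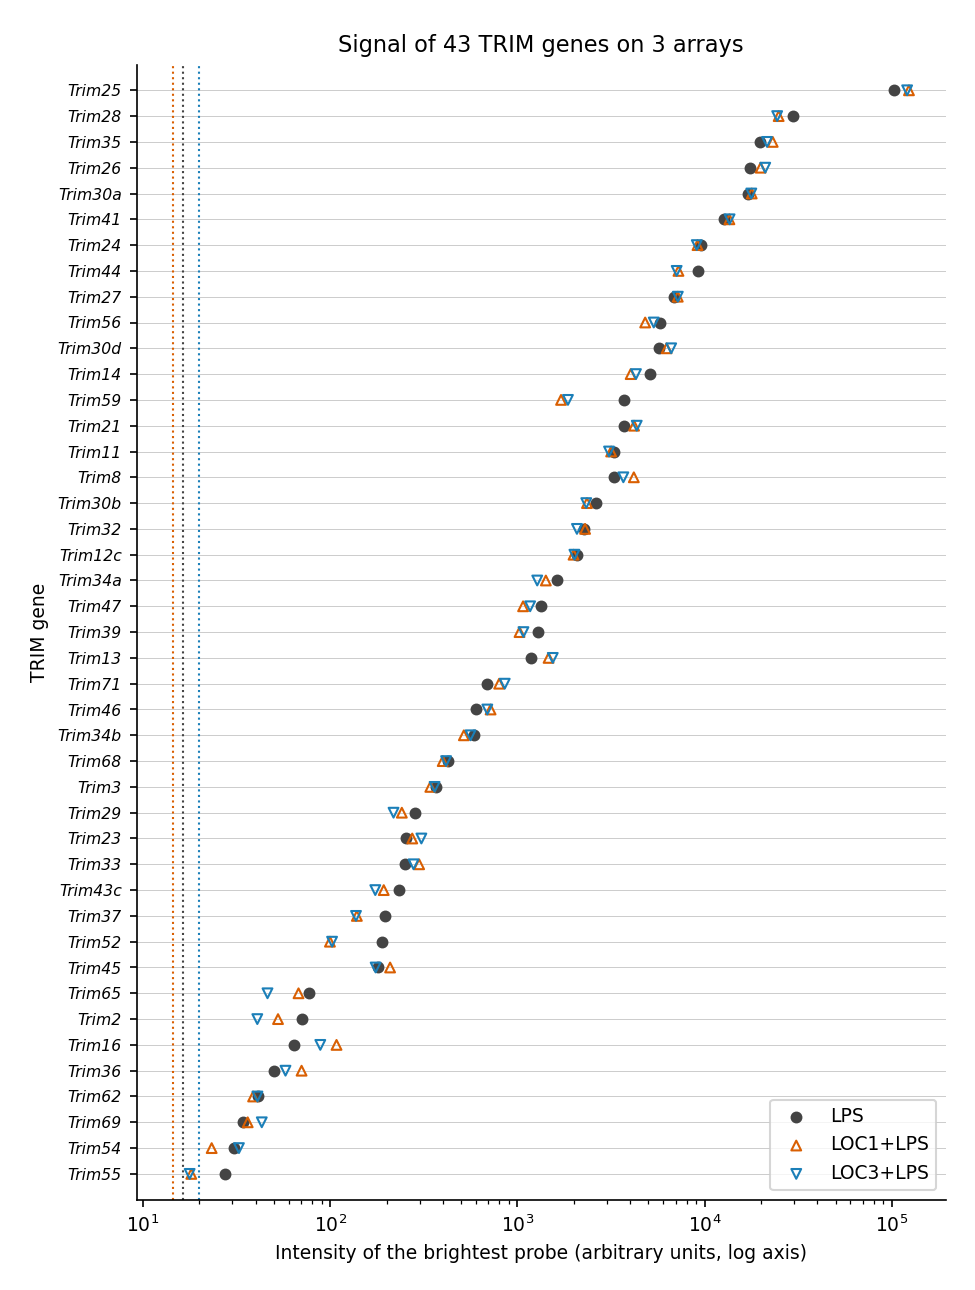
Intensity of the brightest probe of each of the 43 TRIM genes (log axis, arbitrary units) on the LPS, LOC1+LPS and LOC3+LPS arrays, 1 array each; dotted lines mark the lowest signal well above background on each array, 16.3, 14.5 and 19.8. The 3 symbols of most genes nearly overlap, while Trim59 and Trim52 were lower and Trim16 higher with both strains.

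The authors' log2 ratios to unchallenged macrophages, which the deposited table lists only at 2-fold or more, show which members differed after LPS alone. With LPS, 14 of 43 members had a probe listed as higher and 7 as lower, or 32.6% and 16.3%, beside 14.3% and 11.4% of all detected genes. By the brightest probe alone these shares were 23.3% and 13.95% of members, beside 11.02% and 7.68% of all genes. Members had 2 probes each on average and all detected genes 1.79. The other 22 members were not listed with LPS, and 19 members had no probe in the table at all, so that no ratio is known for them. All 3 arrays had LPS, so a gene that fell below background on each of them could not be a member. Among names that did not qualify, the brightest probes of Trim67, Trim61 and Trim72 were listed at -3.58, -2.89 and -1.13, and that of Trim12a at 1.31. Of 26 listed member probes, 18 were higher and 8 lower, and 23 were listed for all 3 conditions with the same sign in each.

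All 6 detected members of the Trim5/Trim30/Trim34 cluster on chromosome 7, whose products include retroviral restriction factors and regulators of NF-kB, were listed as higher by at least 1 probe, beside 14.3% of all detected genes. The deposited log2 ratio of Trim30d was 5.09 or 33.96-fold, from the dimmer of its probes, which read 1586 with LPS. Its brightest probe, at 5683, has no row in the table. Trim34a was listed at 4.13 (17.5-fold) by its brightest probe, Trim34b at 3.87 (14.6-fold) and Trim30b at 3.82 (14.2-fold). The other Trim34a probes, at 232, 488 and 675 with LPS, have no row in the table. Trim30a, the best studied of the group and a negative regulator of NF-kB, was listed by all 3 of its probes, at 3.83, 3.69 and 3.64. Trim12c was lower in this order, at 2.42 or 5.35-fold. These genes resemble each other in sequence: the listed Trim30b probe is named for the gene model Gm38525 by its accession, and the brightest probe of Trim12c, which is not in the table, also carries an accession of Trim5. The other Trim30b probe, whose accession is that of Trim30b, was not well above background on any array, at 3.63, 3.23 and 4.29. The values of Trim30b thus rest on the probe named for Gm38525.

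Among regulators of nucleic acid sensing and interferon induction, 6 of 11 detected members were listed as higher and 1 as lower, beside 14.3% and 11.4% of all detected genes. Trim25 had a ratio of 3.66 (12.7-fold), Trim21 of 2.72 (6.57-fold), and Trim13, an endoplasmic reticulum ligase that acts on RIG-I and MDA5 signalling, of 2.10 (4.29-fold). Trim26, which targets IRF3, was listed at 1.96 (3.89-fold) and Trim14, an adaptor at mitochondria that lacks a RING finger, at 1.75 (3.35-fold). Trim56, a ligase linked to STING and cGAS, was listed by 2 probes, at 1.32 for the brighter and 1.75 for the dimmer. Trim65, an MDA5 ligase, went the other way, with ratios of -3.12 and -3.07 at 2 probes, and the signal implied for unchallenged macrophages was 666 against 76.7 with LPS. Outside these lists Trim69 was listed at 2.77 from an intensity of 34.3 with LPS, which allows only at least 2.10-fold. Trim43c was listed at 1.26 by a probe that was not well above background with LPS, so no fold follows.

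Besides Trim65, 6 members were listed as lower after LPS. Trim47 had a ratio of -2.50, from an implied 7613 in unchallenged macrophages to 1342, and Trim2, an NHL repeat ligase known from neurons, of -2.36, from 360 to 70.4. Trim62 was at -1.82, Trim37, a peroxisome and centrosome ligase, at -1.18 and Trim8, a regulator of STAT and NF-kB signalling, at -1.13. Trim24, a nuclear receptor cofactor, was listed at -1.55 by a dim probe with an intensity of 21.1. The brightest probe of Trim24, at 9533, has no row in the table and carries an accession of Lmbr1.

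**Figure D2:**
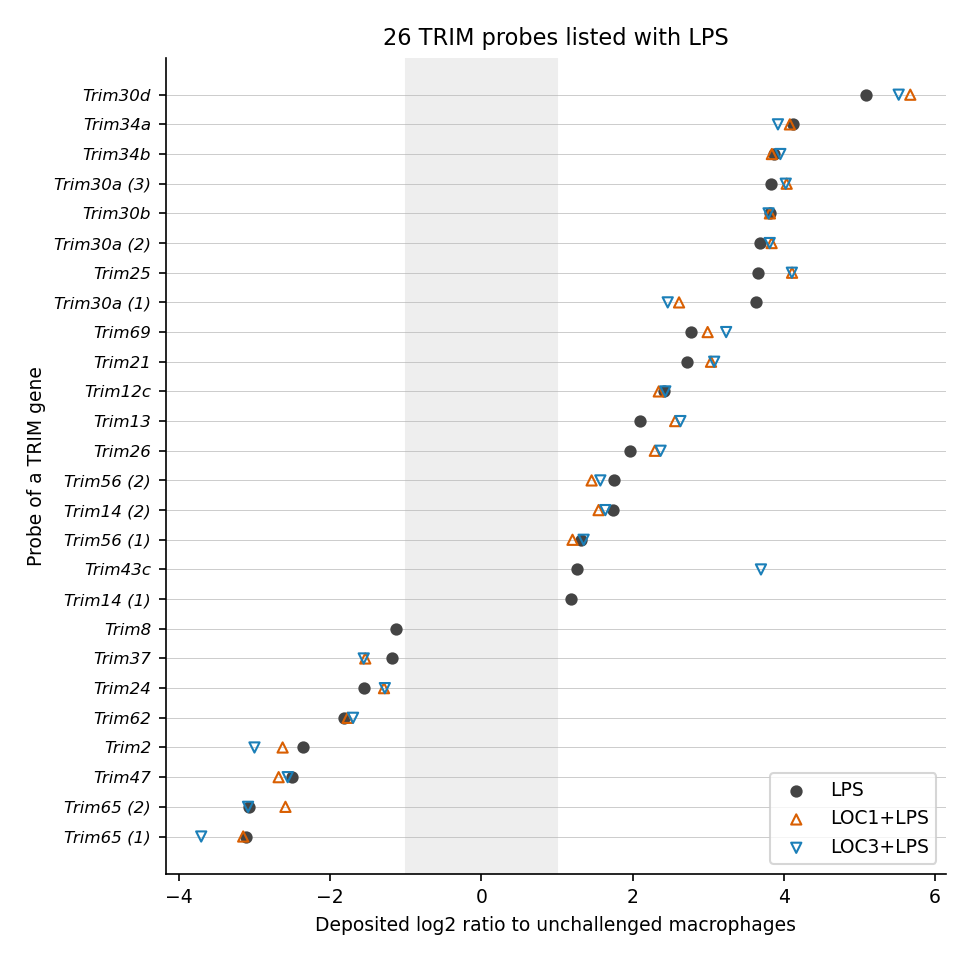
Deposited log2 ratio to unchallenged macrophages (x axis) of the 26 probes of TRIM genes listed with LPS, with the ratios of the same probes for LOC1+LPS and LOC3+LPS where listed; numbers after a name tell probes of a gene apart, and the grey band is the range under 2-fold that the table leaves blank. Members of the Trim30 and Trim34 groups lie between 3.64 and 5.09 with LPS, and the probe Trim30a (1) and the Trim43c probe have the widest gaps between conditions among probes listed as higher.

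The deposited ratio of Trim25 rests on the least bright of its 3 probes. These probes are shown because they gave different accounts of the same gene with LPS, with the longest run of alternating G and T in capitals. They are 60-base array probes as the array files give them, on chromosome 11 of build mm9 at chr11:88878330-88878389, chr11:88881521-88881580 and chr11:88874956-88875015; no annotation of that build was used here, so exons are not stated.

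Trim25 probe, dimmest: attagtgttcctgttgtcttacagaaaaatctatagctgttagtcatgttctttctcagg
Trim25 probe, brightest: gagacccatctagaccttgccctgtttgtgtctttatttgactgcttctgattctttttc
Trim25 probe with GT repeat: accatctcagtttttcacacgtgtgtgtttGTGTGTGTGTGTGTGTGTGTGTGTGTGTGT

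The first was listed at 3.66, from an intensity of 1488 with LPS. The brightest, at 103216, has no row in the table. The repeat probe, at 68102, was blank with LPS, and its ratio, rebuilt from the other columns and the intensities, was 0.63. It holds a run of 30 bases of alternating G and T, and 119 probes of other genes share at least 16 bases with it. Whether it measured Trim25 was not tested.

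Promoters of 31 of the 43 members were in the RefSeq promoter table (GRCm38.p6, 300 bases that end just after each gene's start). They were searched on both strands for GAAANNGAA, the core of the ISRE, for TTCNNNGAA, the STAT site GAS, and for GGGANTTTC, a form of the NF-kB site, in which N is any base. The ISRE core was found for 8 of 12 members listed as higher with LPS, 1 of 5 listed as lower and 0 of 14 not listed, beside 9.76% of 27025 genes in the table. The GAS letters were found for 0 of 12, 0 of 5 and 2 of 14 in the same order (9.55% of all genes), and the NF-kB letters for 1 of 12, Trim30b, and none of the others (1.29%). A match describes the letters and is no measured site. Of the 8 genes, Trim12c, Trim30a, Trim30d, Trim34a and Trim34b lie in the chromosome 7 cluster. A promoter of Trim30a and that of Trim30d share the letters around the match, so the 8 genes are not independent cases. The promoters of 4 of the 8 genes are printed 5′ to 3′ along the table's orientation, with ISRE core letters in capitals on either strand; they lie at chr7:104244207-104244506 (Trim34a, plus strand), chr7:104507800-104508099 (Trim30d, minus), chr11:88999153-88999452 (Trim25, plus) and chr7:102565433-102565732 (Trim21, minus).

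Trim34a promoter: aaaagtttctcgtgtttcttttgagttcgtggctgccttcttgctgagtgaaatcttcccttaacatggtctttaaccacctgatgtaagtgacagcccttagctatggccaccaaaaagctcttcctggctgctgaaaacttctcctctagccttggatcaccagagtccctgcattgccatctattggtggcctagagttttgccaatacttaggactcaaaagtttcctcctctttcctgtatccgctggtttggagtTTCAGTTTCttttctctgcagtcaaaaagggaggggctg
Trim30d promoter: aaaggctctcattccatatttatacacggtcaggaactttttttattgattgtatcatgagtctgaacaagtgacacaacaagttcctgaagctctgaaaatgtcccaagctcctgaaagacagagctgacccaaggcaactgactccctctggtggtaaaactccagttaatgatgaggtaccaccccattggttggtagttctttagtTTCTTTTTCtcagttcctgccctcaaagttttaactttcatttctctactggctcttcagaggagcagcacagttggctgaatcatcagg
Trim25 promoter: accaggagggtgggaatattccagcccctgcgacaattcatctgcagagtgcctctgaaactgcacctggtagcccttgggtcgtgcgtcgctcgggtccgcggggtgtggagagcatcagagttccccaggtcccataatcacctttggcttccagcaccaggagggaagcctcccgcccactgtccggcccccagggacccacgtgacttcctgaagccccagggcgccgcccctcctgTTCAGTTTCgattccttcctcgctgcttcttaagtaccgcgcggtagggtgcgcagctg
Trim21 promoter: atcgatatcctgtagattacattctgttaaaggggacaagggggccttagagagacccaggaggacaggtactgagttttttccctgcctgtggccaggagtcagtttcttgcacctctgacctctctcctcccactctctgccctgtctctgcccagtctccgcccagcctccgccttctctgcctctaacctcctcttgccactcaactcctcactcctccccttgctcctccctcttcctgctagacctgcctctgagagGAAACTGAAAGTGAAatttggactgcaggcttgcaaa

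In these 4 promoters the first base of the match was at 11 in Trim34a, -40 in Trim30d, -9 in Trim25, and 13 and 19 in Trim21, counted with the start as 0. In Trim21 the 2 matches overlap and read in the direction of the gene, and in the other genes the match lies on the opposite strand. Of the other listed genes with the core, Trim12c had it at -28 and Trim30a at -35 and 3 in a pair of promoters, while it lay farther out in Trim26, at -159 and -153, and in Trim34b, at -211.

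With either strain before LPS, 0 of 43 members were past 2-fold by their brightest probe, beside 6.21% of all genes with LOC1 and 6.11% with LOC3. Nearly all members were detected on every array. Of genes well above background on both arrays, fewer were past 2-fold: 370 higher and 462 lower of 18182 with LOC1, and 332 and 378 of 17529 with LOC3. Ifnb1, the gene of interferon beta, read 1251 with LPS, 29911 after LOC1 and 18123 after LOC3, which is 4.72 and 3.99 higher on the log2 scale. The median difference of the members was 0.08 with LOC1 and 0.09 with LOC3, against 0.03 and 0.07 over all genes, but in the deposited ratios, over 19 members, it was -0.0065 with LOC1. With arrays scaled by their medians all genes shifted up by about 0.2, and members close to 0 took the other sign, Trim28 being at 0.07 with LOC1. Their median absolute difference was 0.22 and 0.24, against 0.26 and 0.24. Within 0.5 on the log2 scale lay 38 members with LOC1 (88.4%, beside 75.6% of all genes) and 37 with LOC3 (86.0%, beside 77.8%). Both comparisons share the LPS array: 25 members were above 0 and 15 below 0 in both, and 3 had opposite signs. Among the 33 bright members 19 were above and 9 below LPS by more than the technical SD with LOC1, and 20 and 8 with LOC3.

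**Figure D3:**
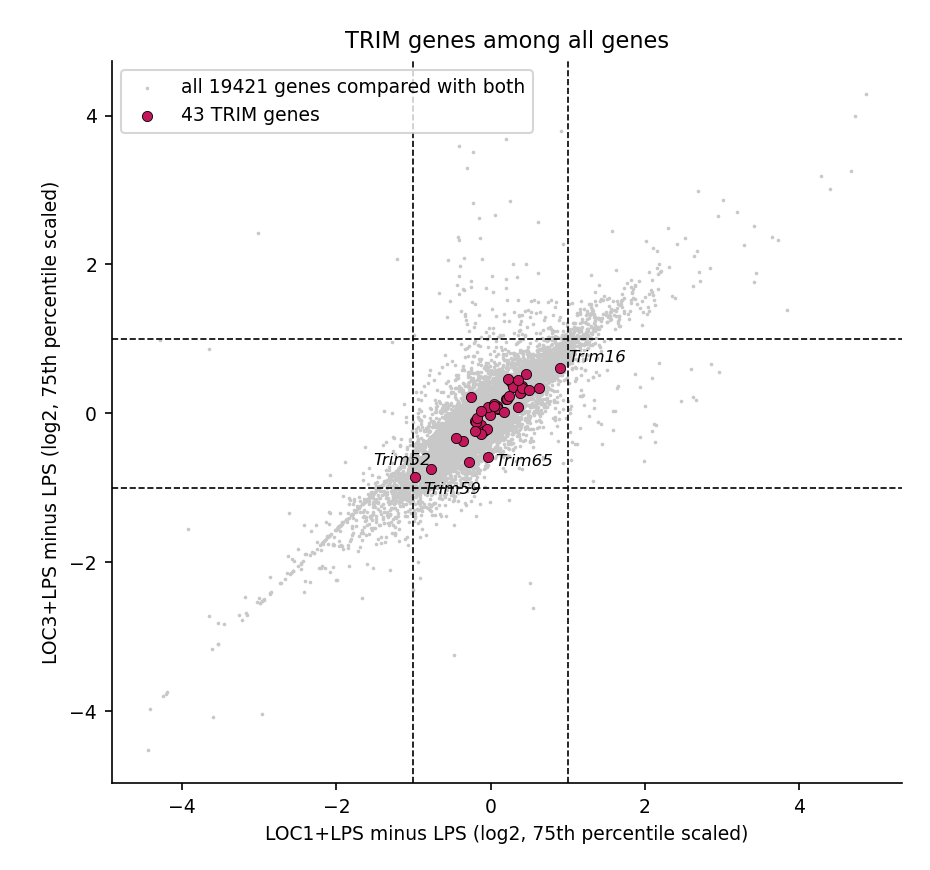
Log2 difference from LPS with LOC1 (x axis) and with LOC3 (y axis) of the 43 TRIM genes (filled circles) over all genes compared with both strains (grey); dashed lines mark 2-fold. All TRIM genes lie inside the 2-fold lines, with Trim59 at -0.98 and -0.86 and Trim16 at 0.90 and 0.61 nearest to them.

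The members listed as higher with LPS had a median difference of 0.15 with LOC1, 8 of 14 being above 0, and of 0.15 with LOC3, 10 of 14 being above 0. Their range was -0.20 to 0.46 and -0.28 to 0.53. Over all genes 10754 of 20018 were above 0 with LOC1 and 11489 of 19789 with LOC3. Members listed as lower had medians of -0.03 and -0.06, and those not listed 0.13 and 0.10. The ratio after LPS and these differences use the same LPS array and are given side by side only.

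In the chromosome 7 cluster the brightest probes of all 6 members stayed within 0.5 of LPS with both strains, as did 75.6% of all genes with LOC1 and 77.8% with LOC3. The brightest probe of Trim30a read 17020 on the LPS array, 17841 after LOC1 and 17752 after LOC3, which is 0.21 and 0.20 on the log2 scale. Another of its probes, also bright, was at -1.02 and -1.17, and the mean of its 3 probes at -0.22 and -0.29, so the direction for Trim30a depends on the probe. For Trim30d the intensities were 5683, 6265 and 6626, with differences of 0.29 and 0.36, and its dimmer probe read 1586, 2156 and 1945, or 0.59 and 0.43. The others lay within 0.21 of LPS. Trim30b, by the probe named for Gm38525, read 2614, 2352 and 2331 (-0.01 and -0.03) and Trim34b 583, 518 and 561 (-0.03 and 0.08). For Trim34a the readings were 1618, 1418 and 1276, with -0.04 and -0.21.

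Among the 11 detected regulators of nucleic acid sensing 7 were above 0 with LOC1 and 8 with LOC3, with medians of 0.20 and 0.20. Over all genes 10754 of 20018 were above 0 with LOC1 and 11489 of 19789 with LOC3. All 3 probes of Trim25 were higher with both strains: the brightest read 103216, 123384 and 120630, differences of 0.40 and 0.36, the dimmest 0.45 and 0.44, and the repeat probe 0.56 and 0.53. Trim21 read 3716 with LPS, 4198 with LOC1 and 4338 with LOC3, differences of 0.32 and 0.36. By the brightest probes, Trim13 had the largest difference among the 11 regulators with LOC1, from 1179 to 1467 and 1544, or 0.46 and 0.53. Each of these 3 genes was higher than LPS on both strain arrays by several times the technical SD of bright probes and less than 2-fold. Trim26 read 17481, 19907 and 21065 (0.33 and 0.41). Trim14 was on the lower side, with 5098, 4025 and 4297 and differences of -0.20 and -0.11. The brightest probe of Trim56 read 5776, 4812 and 5348, or -0.12 and 0.03, and its other probes were lower with both strains, at -0.30 and -0.18 and at -0.81 and -0.52. Trim65, dim on all arrays, read 76.7, 67.7 and 46.2, so that LOC3 was at -0.59 and LOC1 at -0.03, but its other probes with LOC1 were at 0.48 and, as a bound, -0.69.

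Of the TIF1 chromatin regulators, which read histone marks through a PHD finger and a bromodomain, Trim28 was lower under the 75th percentile, with 29816, 24850 and 24396 and differences of -0.12 and -0.15, and Trim33 higher, with 251, 299 and 279 (0.40 and 0.29), though its other probes were at 0.21 and 0.02 and at -0.20 and -0.34. For Trim24 the brightest probe, the one with an accession of Lmbr1, was at 0.09 and 0.07, and the probe next in brightness read 381, 519 and 432, or 0.59 and 0.32. The 4 NHL repeat ligases were all detected. Trim71, a stem cell RNA-binding ligase, read 692, 799 and 856 (0.35 and 0.44), while Trim2 read 70.4, 52.6 and 40.8 (-0.27 and -0.65). The brightest probes of Trim32 and Trim3 were within 0.17 of LPS. Of the microtubule-binding group Trim46 was at 0.40 and 0.34 by its brightest probe and at 0.05 and -0.19 by the other, the dim Trim36 was at 0.63 and 0.33, and of the muscle group Trim54 was at -0.26 and 0.22 and Trim55 at -0.45 and, as a bound, -0.33. In the MHC region, Trim39 was at -0.18 and -0.12 beside Trim26.

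The members farthest from LPS with LOC1 were Trim59, Trim16 and Trim52, and with LOC3 Trim59, Trim52 and Trim2, of which Trim16 and Trim52 were chosen after their values were seen. Trim59, a membrane-anchored ligase linked to NF-kB and IRF signalling, has 1 probe, at chr3:68839250-68839309 of mm9, which read 3720 with LPS, 1710 with LOC1 and 1861 with LOC3. Its differences were -0.98 and -0.86, both strain arrays lying well below LPS and close to each other, and with quantile normalization the LOC1 difference was -1.06. It is not listed with LPS alone, and its rebuilt ratio to unchallenged macrophages was -0.79, while its deposited ratios were -1.76 for LOC1+LPS and -1.65 for LOC3+LPS. Trim52 read 189, 99.7 and 102, with differences of -0.77 and -0.74, in the dim range. Trim16, which takes part in autophagy of damaged lysosomes and in the response to oxidative stress, read 64.0, 108 and 88.5, or 0.90 and 0.61. Of the remaining listed genes, Trim8 was at 0.50 and 0.31, from 3272 to 4185 and 3679, Trim37 at -0.35 and -0.38, Trim47 at -0.18 and -0.06, Trim62 at 0.05 and 0.12 and Trim69 at 0.22 and 0.47. Trim35, a regulator of TLR signalling and glycolysis, read 19682, 23094 and 21529 (0.38 and 0.27).

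Between the strains 0 of 43 members were past 2-fold by the brightest probe, beside 2.63% of all genes. Of 17515 genes well above background on both arrays, as nearly all members were, only 37 were past 2-fold higher and 69 lower with LOC1. The difference between LOC1 and LOC3 was under 0.3 in 39 members. It was wider in 3, and for Trim55 it has only a bound. The median absolute difference was 0.09 over the members and 0.09 over all genes. The widest was that of Trim65, 0.56 higher with LOC1, followed by Trim54, 0.48 lower, and Trim2, 0.37 higher. All 3 are dim. Of the 33 bright members 13 differed between the strains by no more than the technical SD, a count that was not made over all bright genes.

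**Figure D4:**
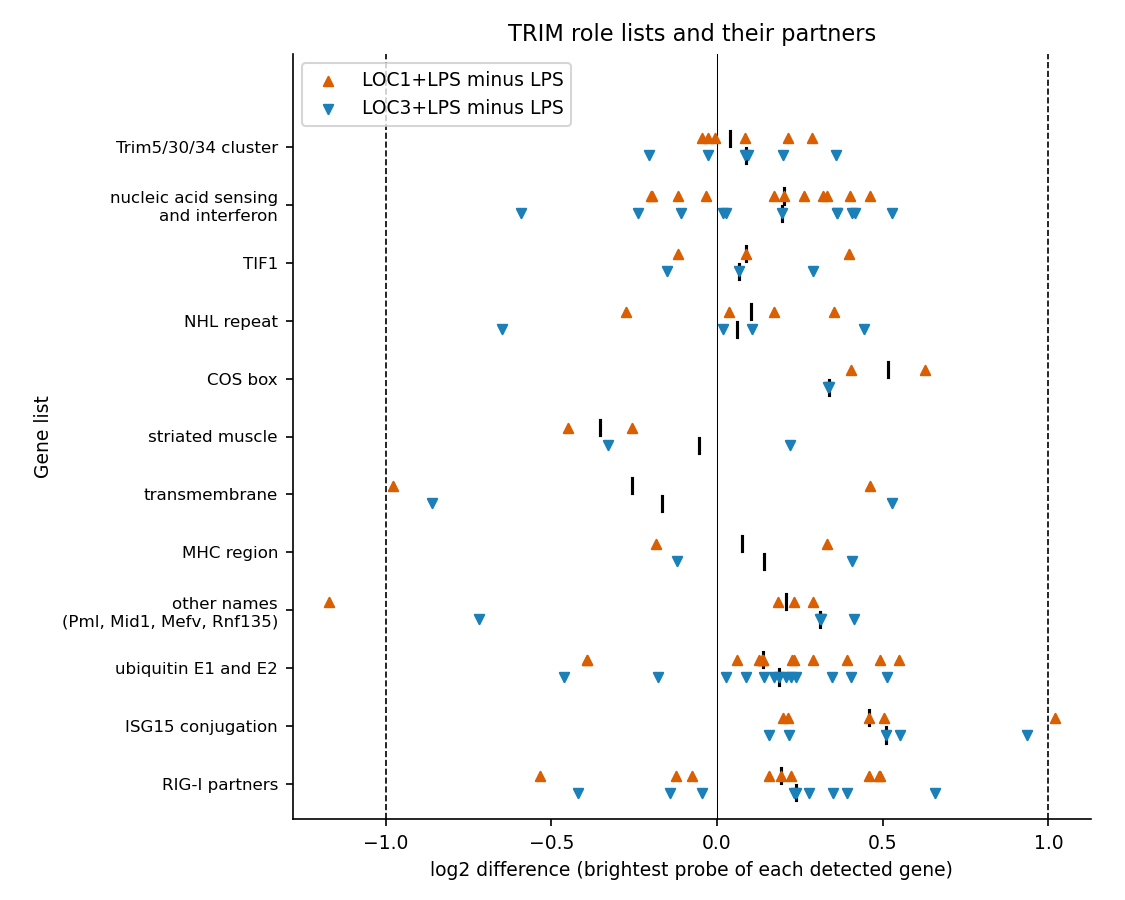
Log2 difference from LPS with LOC1 and with LOC3 (x axis, brightest probe of each detected gene) for the role lists of TRIM genes and for their relatives and partners; black bars are medians, dashed lines mark 2-fold. In the TRIM lists all points (brightest probes) lie inside 2-fold, and Mefv and Herc6 are the genes past it with LOC1.

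Probes of the same gene did not always move together. Over single probes, 3 of 78 member probes were past 2-fold with LOC1 (beside 6.43% of all probes), 3 of 79 with LOC3 (6.3%) and 1 of 76 between the strains (2.4%). Of 24 members with over 1 detected probe, 11 had probes of opposite sign with LOC1 and 12 with LOC3. Some of these signs came from dim probes or from differences near 0, such as Trim12c at 0.08 and -0.07 with LOC1. The same count was not made over all genes. Over the 23 with over 1 probe compared, the median distance between the highest and the lowest probe was 0.35 with LOC1 and 0.37 with LOC3.

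The probes of Trim30a are shown because they carry the clearest case. They lie on the minus strand of chromosome 7 in mm9, in the order printed at chr7:111560170-111560747, chr7:111560808-111577672 and chr7:111579140-111579199, the first and second being 60-base probes whose ends lie farther apart in the genome than 60 bases. The second probe of Trim16, at chr11:62654113-62654172, and the dim probe of Trim43c, at chr9:88735374-88735433, follow.

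Trim30a probe, brightest: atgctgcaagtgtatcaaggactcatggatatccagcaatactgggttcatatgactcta
Trim30a probe, second: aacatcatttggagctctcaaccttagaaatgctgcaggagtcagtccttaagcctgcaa
Trim30a probe, last: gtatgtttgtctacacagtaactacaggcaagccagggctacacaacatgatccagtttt
Trim16 probe, second: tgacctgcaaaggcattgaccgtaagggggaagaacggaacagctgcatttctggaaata
Trim43c probe, dim: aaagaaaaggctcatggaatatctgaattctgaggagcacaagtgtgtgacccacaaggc

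The last Trim30a probe, like the second, carries a cDNA accession that matched no RefSeq gene. It read 2511 with LPS, 1119 after LOC1 and 1012 after LOC3, and fell by 1.02 and by 1.17 on the log2 scale. The second read 9845, 9855 and 9719, differences of 0.15 and 0.12. Thus the last probe was below LPS on both strain arrays and the others slightly above it, while all 3 had similar ratios after LPS alone. The second Trim16 probe read 28.4, 65.4 and 59.97, or 1.35 and 1.21, in the same direction as the brightest. The Trim43c probe was not well above background with LPS, at 13.7, or with LOC1, at 3.11, and read 67.4 with LOC3, at least 4.55-fold above LPS and at least 4.62-fold above LOC1. Its accession is shared by Trim43a and Trim43b, and the brighter Trim43c probe was at -0.13 and -0.28. A dim probe of Trim14 had a signal of 34.2 with LPS that dropped out of the detected range after both strains, by at least 2.13-fold for LOC1. With LOC3 it read 20.4, which was above the dimmest passing signal and so was not raised, and the 1.53-fold is as read.

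**Figure D5:**
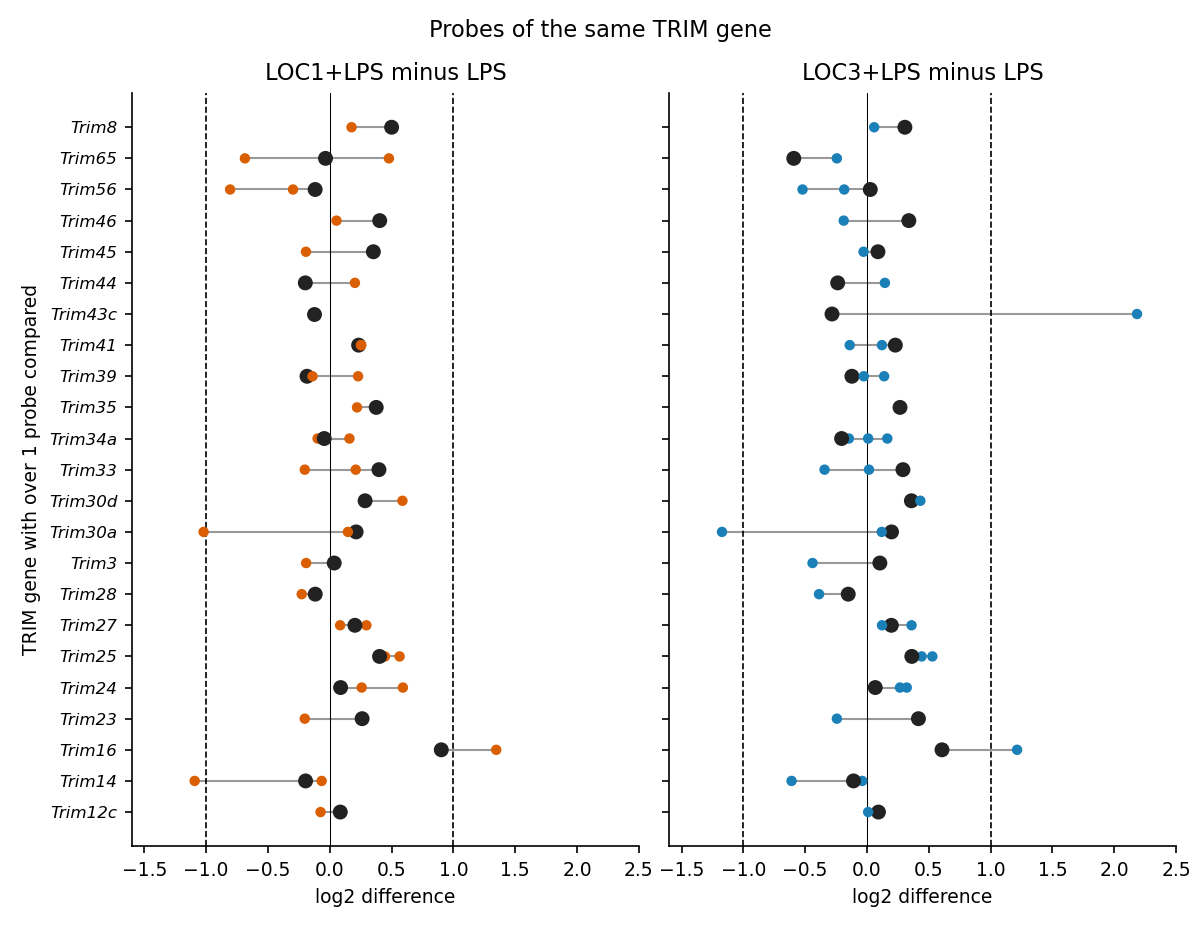
Log2 difference from LPS (x axis) of every compared probe of the 23 TRIM genes with over 1 such probe, with LOC1 on the left and LOC3 on the right; large black points are the brightest probe of a gene, coloured points its other probes, and dashed lines mark 2-fold. The probes of Trim25 lie close together on the right of 0, while those of Trim30a span 1.23 with LOC1 and the dim Trim43c probe stands at 2.18 with LOC3.

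Relatives and partners of the family were read from fixed lists. Of 5 tripartite motif proteins with other names 4 were detected and all 4 were listed as higher with LPS, beside 14.3% of all detected genes. Mefv, which encodes the inflammasome sensor pyrin, was listed at 3.87, at least 8.88-fold, and then read 145 with LPS, 58.2 with LOC1 and 80.0 with LOC3, -1.17 and -0.72. It was the gene of this list past 2-fold with a strain by the brightest probe, beside 6.21% of all genes with LOC1. Pml, the core of nuclear bodies, and Rnf135, a RIG-I ligase, were listed at 1.98 and 1.55 by their brightest probes, which stayed within 0.31 of LPS with both strains. A dim listed probe of Pml went the other way, at -0.93 with LOC1 and, as a bound, -1.09 with LOC3, and a dim listed probe of Mid1, a microtubule-associated ligase, had bounds of -1.80 and -1.36. The brightest Mid1 probe was higher with both strains, at 0.23 and 0.41. Its bright listed probes were also above LPS with both strains, and its dim listed probes below. The 13 detected E1 and E2 enzymes, which load ubiquitin for TRIM ligases, had 1 gene listed with LPS, Ube2e2 at 1.71, and 0 past 2-fold with either strain by the brightest probe, beside 14.3% of all genes listed as higher and 6.21% and 6.11% past 2-fold. All 5 genes of ISG15 conjugation, to which Trim25 is related as an ISG15 ligase, were listed as higher with LPS, beside 14.3% of all detected genes, with Isg15 at 7.81. Of these Herc6, the main mouse ISG15 ligase, was past 2-fold with LOC1, with 2266, 4155 and 3940, or 1.02 and 0.94. Of 9 partners in the RIG-I pathway 6 were listed as higher and 1, Mavs, as lower, beside 14.3% and 11.4% of all genes. By their brightest probes 0 of 9 were past 2-fold with a strain, beside 6.21% and 6.11%, and the lowest was Ikbke, a kinase of the interferon pathway, at -0.53 with LOC1. A dimmer Ikbke probe read 147 with LPS, 41.0 after LOC1 and 65.7 after LOC3, and was past 2-fold with both strains, at -1.70 and -1.03.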

How the data were processed

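Total RNA (200 ng) was labelled with Cy3 and hybridised to 1-colour Agilent mouse arrays, 1 array per condition. The authors deposited the intensity of each spot as background-corrected by Feature Extraction 12.0.3.1, with no normalization between arrays. They also deposited log2 ratios made in GeneSpring 13.1, listed at 2-fold or more against unchallenged macrophages; the column medians were 1.05 for LPS, -1.03 for LOC1+LPS and -1.04 for LOC3+LPS, and that the common reference is the unchallenged array was inferred. Of the blank LPS cells, 5557 were rebuilt from other columns and the intensities, and all 5557 lay under 2-fold.

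Outlier spots were left out and spots of a probe averaged. The arrays had 75th percentiles of 367 (LPS), 332 (LOC1) and 334 (LOC3). A gene entered a comparison if either array detected it, and a difference with a side not well above background was called a bound. Past 2-fold counted as called. The number of arrays sets the precision. Of 86 member probes 72 were matched to RefSeq by accession, 3 of them to over 1 gene. Python 3.11.15, numpy 2.4.6, pandas 2.3.3, matplotlib 3.10.9 and limma 3.58.1 (normexp, offset 50) were used, and the procedure was tested on simulated data. The submitters' notes name R 3.2.5 and limma.

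The members, lists and motifs were chosen with earlier results of these data known. Named in the text were members past 2-fold or listed with LPS, the 5 with the highest probe signal, examples of the role lists, and Ifnb1; other members named were chosen after their values were seen. Alternatives were other scalings, background correction, filters, thresholds, probe rules and the deposited ratios. The t-test of the methods needs more than 1 array per condition and was not run.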

Additional observations from a re-analysis of the deposited data

Results flagged for a closer look

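Probes other than the brightest of a gene are not used in the counts of genes, and some of them were past 2-fold with a strain. The last probe of Trim30a had log2 differences from LPS of -1.02 with LOC1 and -1.17 with LOC3, against 0.21 and 0.20 for the brightest probe. The second probe of Trim16 had 1.35 with LOC1 and 1.21 with LOC3, in the direction of the brightest. The dim probe of Trim14 was at -1.09 with LOC1 as a bound, where the brightest was at -0.20. The dim probe of Trim43c was at 2.18 with LOC3 as a bound, where the brightest was at -0.28. With 1 array per condition none of these has a replicate check.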

How the results depend on the processing

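No paired analysis was possible because each condition had 1 array and the labels give no replicate numbers. The count of 0 members past 2-fold with LOC1 became 1 with arrays scaled by their medians (Trim16, 1.09), 2 with quantile normalization (Trim16, 1.001, and Trim59, -1.06), 1 with the percentile taken over commonly detected probes (Trim59, -1.05), 1 with the mean of the detected probes (Trim16, 1.12) and, chosen after seeing the data, 1 with the percentile over all spots (Trim59, -1.01). With the deposited ratios 1 gene passed with LOC3 (Trim43c, 2.44), through its dim probe, which was not well above background with LPS, so that only the bound of 2.18 holds, while its brightest probe was at -0.28, and with the mean of probes 1 passed between the strains, Trim43c. At 1.5-fold 4 of 43 members passed with LOC1, beside 1751 higher and 2099 lower of 20018 genes, and 5 with LOC3, beside 1711 and 1724 of 19789. Probes in place of genes gave 3, 3 and 1 in the order of the comparisons, as did counting a gene by any of its probes, chosen after seeing the data. Scaling by medians moved the median of all genes to 0.22 with LOC1 and 0.23 with LOC3 and that of the members to 0.27 and 0.26. With the percentile over commonly detected probes they were 0.011 and 0.011, and in the deposited ratios that of LOC1 was -0.0065 over 19 genes. The cause of these moves was not tested. At 3-fold 4 members were listed as lower with LPS in place of 7. No count of members moved under normexp, without filter and floor, or with genes detected on both arrays, nor when probes that name another gene were left out. Over all genes detected on both arrays, 370 were higher and 462 lower with LOC1, and 332 and 378 with LOC3. The mean of probes turned the sign of Trim30a to -0.22 and -0.29. The split of all genes past 2-fold, 543 higher and 701 lower with LOC1 and 632 and 577 with LOC3, became 890 and 465, and 889 and 376, with arrays scaled by medians. Spot noise limits the dim members most.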
